A study of Mus musculus with 15 samples.

Results

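The binding of the transcription factor Myc was compared between 0 min and 10 min of MycER activation in mouse fibroblasts, by setting the Myc peak list of 10 min against that of 0 min. A 10 min peak was called shared when it overlapped a 0 min peak by at least 1 bp (mm9) and new otherwise, and 0 min peaks were sorted in the same way. Of 24066 peaks at 10 min, 4943 were new and 19123 were shared. Of 19995 peaks at 0 min, 736 were not called at 10 min and 19259 were shared. Both are lists of chromatin immunoprecipitation with sequencing (ChIP-seq), 2 of the 15 samples of the series, which also profiled Myc and RNA polymerase II (RNAPII) at later times.

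The cells were 3T9 fibroblasts from E13.5 mouse embryos with both c-myc alleles floxed, infected in culture with a pBabe bleomycin retroviral construct for MycER. Both libraries come from these cells and so carry the floxed alleles and the construct. The 10 min cells had received 400 nM 4-hydroxytamoxifen (OHT), and the labels name no vehicle for 0 min. Myc was precipitated with antibody N262, which cannot be used here to tell endogenous Myc from the fusion. The 0 min library held 33431447 tags and the 10 min library 28132063, each set against a control of like size (33438393 and 28127893 tags). There was 1 library at each time, so the differences below come without replicate error and without p-values. Intervals in brackets are Wilson 95% intervals and cover counting error only. In a population of cells, binding in more cells and more binding per cell cannot be told apart.

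Myc is a basic helix-loop-helix leucine zipper protein that binds DNA as a dimer with Max. The dimer prefers the E-box CACGTG and accepts related sites such as CACGCG and CATGTG, and in fibroblasts much of it lies at CpG-rich promoters that also carry RNAPII. MycER is Myc fused to the hormone-binding domain of the oestrogen receptor, which keeps the fusion inactive until OHT binds.

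The sequences below are the plus strand of mm9 (NCBIM37), 5′ to 3′, at single peaks picked as examples, with the motif in capitals. They do not show how common a motif is: 8.11% of new peaks held a CACGTG in the 200 bp around the summit. The first group holds the 3 promoter peaks new at 10 min that best show the different motifs found there: a CACGTG at P2ry2, which encodes a receptor for extracellular nucleotides, a CACGTG in an intron of Gmip, and the core of the AP-1 site (TGANTCA, bound by Fos and Jun proteins) upstream of Kremen1, which encodes a receptor of Wnt antagonists. At Kremen1 the AP-1 core overlaps a CACGCG.
P2ry2, new, chr7:108160514-108160541: gcgcagggtccCACGTGcctggaagcgc
Gmip, new, chr8:72333173-72333232: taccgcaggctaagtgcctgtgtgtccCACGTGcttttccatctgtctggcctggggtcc
Kremen1, new, chr11:5161948-5162008: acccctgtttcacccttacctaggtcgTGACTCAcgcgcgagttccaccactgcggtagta
Far from promoters, new peaks of high enrichment held a CACGTG in an intron of Ptprt and a pair of them in an intergenic stretch nearest to Lsm3. Of that pair, only the second is in capitals.
Ptprt, new, chr2:161396241-161396300: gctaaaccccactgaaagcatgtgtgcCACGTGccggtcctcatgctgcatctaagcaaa
Lsm3, new, chr6:91549157-91549216: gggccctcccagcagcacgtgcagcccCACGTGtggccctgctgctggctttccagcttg
The new distal peak with the highest fold enrichment, in an intron of Gnao1, held no CACGTG but a row of CATGTG copies, read here on either strand as CATGTG or CACATG. Another such row lay in an intergenic peak nearest to 1190002H23Rik. Each is shown as the 200 bp around its summit.
Gnao1, new, chr8:96382303-96382502: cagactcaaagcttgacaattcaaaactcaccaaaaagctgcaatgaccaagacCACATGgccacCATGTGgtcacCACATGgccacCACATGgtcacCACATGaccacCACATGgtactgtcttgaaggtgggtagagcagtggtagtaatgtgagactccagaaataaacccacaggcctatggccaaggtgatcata
1190002H23Rik, new, chr14:79704953-79705152: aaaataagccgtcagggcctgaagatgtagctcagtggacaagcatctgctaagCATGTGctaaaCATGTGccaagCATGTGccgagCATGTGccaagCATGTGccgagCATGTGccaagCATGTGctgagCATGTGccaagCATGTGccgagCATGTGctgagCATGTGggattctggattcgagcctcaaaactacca
For contrast, shared peaks among those with the most tags held a CACGTG in the intergenic summit window of the Cirbp peak and a CACGCG in the 5′ untranslated region of Nr1d1. The Cirbp summit lay 5783 bp from the nearest transcription start site.
Cirbp, shared, chr10:79622908-79622967: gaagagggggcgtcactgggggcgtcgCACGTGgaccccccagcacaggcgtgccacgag
Nr1d1, shared, chr11:98636626-98636653: ttcccgggccgCACGCGgcactggagca

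The first comparison asked how much of the Myc landscape differed between the lists. Nearly all 0 min peaks were called again, and the lists differed mainly in 4943 extra weak peaks at 10 min. New peaks made up 20.5% (20.0 to 21.1) of the 10 min list, and peaks not called again made up 3.68% (3.43 to 3.95) of the 0 min list. The 10 min library gave more peaks from fewer tags. Of its tags, 14.7% lay in its peaks, which covered 47.2 Mb, against 9.26% in 38.7 Mb at 0 min. Over the 18588 peaks that overlapped exactly 1 peak of the other list, the density was 3.37 tags per kb per 1000000 library tags at 10 min and 2.43 at 0 min. The density was higher at 10 min in 96.3% of these pairs, with a median ratio of 1.34. The part of this library-wide difference in the number of new peaks was not tested.

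Because one list was longer, equal numbers of peaks with the most tags were also compared. Lists of equal length give nearly equal counts on each side by construction, so these counts show how many peaks differ and not in which direction. With the 19995 peaks with the most tags on each side, 2298 were found at 10 min only and 2117 at 0 min only. Of those 2117, 1381 were in the whole 10 min list at a lower rank. With 5000 peaks a side the counts were 662 and 649, and with 1000 a side they were 202 and 201. Of these 202 10 min peaks, 201 were in the whole 0 min list. Ranked by the authors' p-value, the equal lists gave 2049 and 1863, and by their fold enrichment 2494 and 2309.

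Shared sites kept their position. The summits of the 18588 pairs lay a median of 41 bp apart, and 78.4% were within 100 bp. The 10 min peak was the longer of the pair in 68.9% of cases, with median lengths of 1877 bp at 10 min and 1742 bp at 0 min. Few peaks sat at the edge of the rule. Only 50 new peaks lay within 100 bp of a 0 min peak, and 16 shared peaks overlapped by 100 bp or less.

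New peaks came from the bottom of the 10 min list. In the decile with the most tags, 99.9% of 10 min peaks were also called at 0 min (2404 of 2407), and in the decile with the fewest 29.0% were. The 0 min list went from 100% in its highest decile to 81.2% in its lowest. New peaks held a median of 60 tags and stood at a median rank of 20322 of 24066. Shared 10 min peaks held a median of 146 tags. The authors' fold enrichment over the control had a median of 7.47 in new and 14.71 in shared peaks of the same list. Peaks not called again held a median of 58 tags and stood at a median rank of 18029 of 19995.

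**Figure D1:**
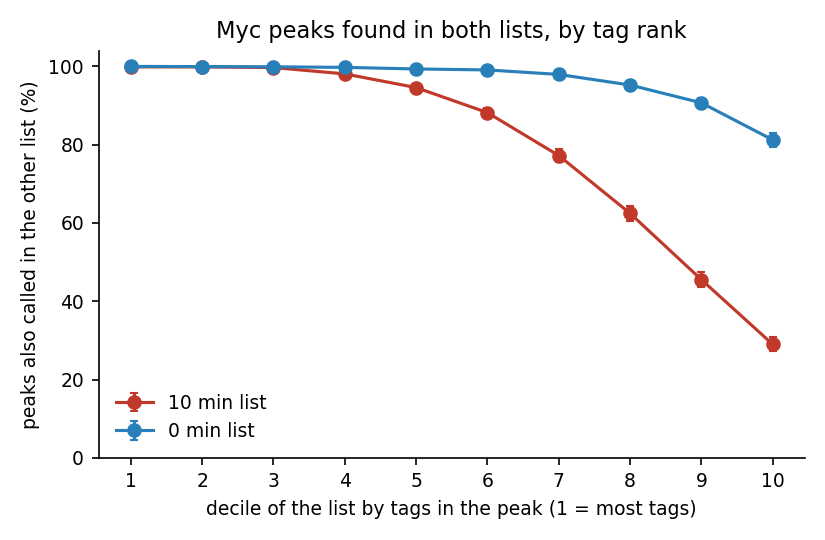
Percent of peaks also called in the other list (vertical axis) for each decile of a list ordered by tags in the peak (horizontal axis, 1 has the most tags), for the 10 min list and the 0 min list, with Wilson 95% intervals. The 10 min curve falls from 99.9% to 29.0% and the 0 min curve from 100% to 81.2%.

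Many calls lay close to the caller's threshold, a score of 80 on the authors' scale of −10 times log10 p. The score was under 100 in 31.6% of new peaks and in 2.39% of shared 10 min peaks. It was under 100 in 55.6% of the 0 min peaks not called again. The lowest scores were 80.02 among new and 80.05 among not-called peaks. New peaks lay a median of 17640 bp from the nearest 0 min peak, and 53.1% had one within 20000 bp.

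New peaks were mostly distal. A peak was assigned to a promoter when any part of it lay within 1000 bp of an annotated transcription start site (TSS), windows that cover 4.02% of the genome. By this definition 18.5% (17.4 to 19.6) of new peaks were at promoters, against 51.3% (50.6 to 52.0) of shared 10 min peaks and 23.4% (20.5 to 26.6) of the 0 min peaks not called again. The median distance from summit to TSS was 13855 bp in new, 1617 bp in shared and 9255.5 bp in not-called peaks. Summits over 10000 bp from any TSS made up 56.7% of new, 33.1% of shared and 48.2% of not-called peaks. Among summits beyond 1000 bp, introns held 48.7% in new and 48.5% in shared peaks, so the share of introns lay close there.

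**Figure D2:**
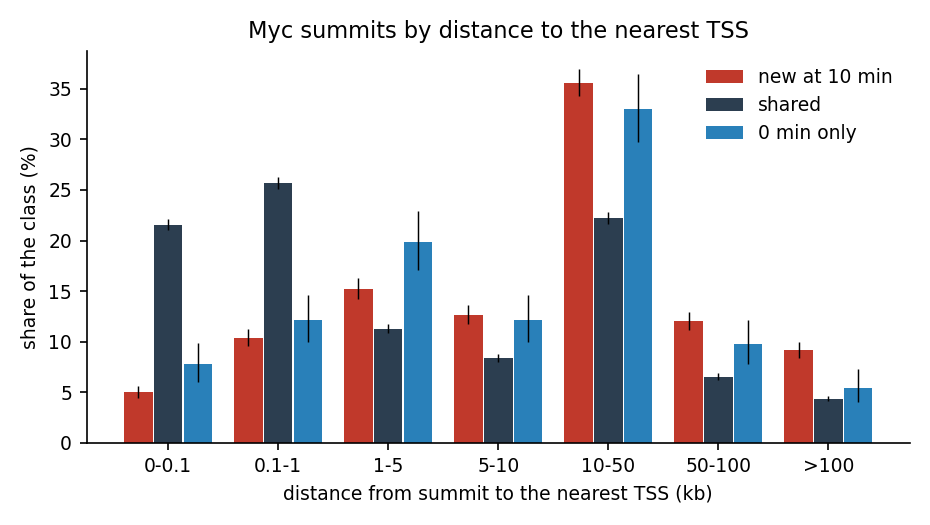
Share of each class of Myc peaks (vertical axis, percent) by distance from the summit to the nearest TSS (horizontal axis, kb), with Wilson 95% intervals. Summits within 0.1 kb make up 5.02% of new and 21.6% of shared peaks, and those at 10 to 50 kb make up 35.6% and 22.2%.

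Shared peaks with few tags were less often at promoters than those with many, so the classes were also compared within deciles of the 10 min list. In the tenth decile 19.6% of new and 27.7% of shared peaks were at promoters. In the seventh decile the values were 20.8% and 32.9%, and in the fifth 13.1% and 44.8%. No such fall was seen in new peaks. Over the 3 deciles with the fewest tags together, 18.4% of 3922 new and 30.5% of 3297 shared peaks were at promoters. Even there the new peaks were the weaker, with a median of 55 against 63 tags.

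RNAPII had been present before OHT at far fewer of the new sites. A peak of the narrow RNAPII 0 min list overlapped 17.6% (872) of new, 60.7% of shared 10 min and 22.7% (167) of not-called peaks. That RNAPII library held 15276996 tags and gave 18877 peaks. At promoters the overlap was 55.4% for new, 91.6% for shared and 57.0% for not-called peaks. Away from promoters it was 9.10%, 28.3% and 12.2%. In the 3 deciles with the fewest tags it was 16.7% for new and 31.1% for shared peaks.

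**Figure D3:**
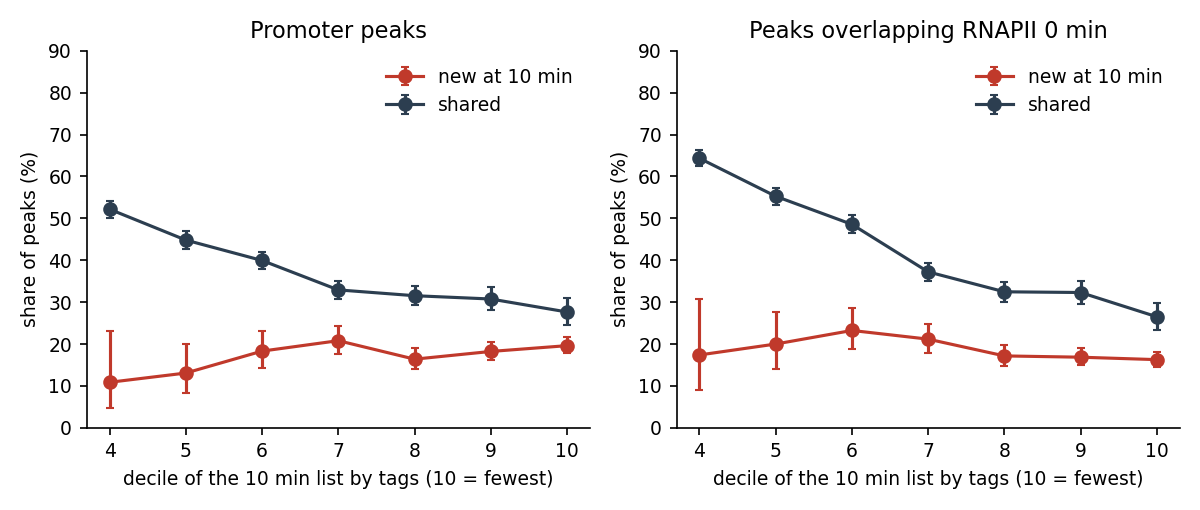
Percent of 10 min Myc peaks at promoters (left) and percent overlapping an RNAPII 0 min peak (right) for new and shared peaks in deciles 4 to 10 of the 10 min list by tags (10 has the fewest), with Wilson 95% intervals. Deciles 1 to 3 hold too few new peaks to draw. In the tenth decile 19.6% of new and 27.7% of shared peaks are at promoters.

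The canonical E-box was rarer in new peaks. CACGTG lay in the 200 bp around the summit of 8.11% (401, interval 7.38 to 8.91) of new peaks, 15.8% of shared 10 min peaks and 10.6% (78) of not-called peaks. Windows of the same width 1000 bp away on both sides held it in 2.46%, 2.60% and 2.99%. All 3 classes were therefore above their flanks. At promoters CACGTG was found in 7.24% of new and 18.1% of shared peaks, and away from promoters in 8.31% and 13.3%. Among the 3 deciles with the fewest tags the gap was smaller, with 7.85% (7.05 to 8.74) for new and 9.52% (8.57 to 10.6) for shared peaks. At promoters the values there were 7.48% (5.78 to 9.63) and 8.57% (6.99 to 10.5). Away from promoters they were 7.94% (7.05 to 8.93) and 9.94% (8.78 to 11.2). These intervals overlapped, which does not show that the shares are equal. The remaining gap was not tested. CACGCG, with CGCGTG on the other strand, was found in 3.46% of new and 12.7% of shared peaks. In the same 3 deciles it was found in 3.42% and 5.10%, and at their promoters in 10.9% and 10.6%. New peaks also had a lower median GC content (48.5% against 55.5%) and fewer CpG dinucleotides (a median of 3 against 6 in the 200 bp). Away from promoters these gaps were smaller, with 47.5% against 50% and 2 against 3. At promoters they were 57% against 63% and 9 against 15.

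The AP-1 core was the most unequal motif in the other direction. TGANTCA was found in 35.2% of new, 22.5% of shared and 23.0% of not-called peaks, against 6.01%, 5.73% and 6.11% of flanks. Away from promoters the values of new and shared peaks lay close together (39.4%, 37.9 to 40.9, and 38.9%, 38.0 to 39.9), while not-called peaks had 27.5%. At promoters new peaks held it in 16.8% (14.5 to 19.3) and shared peaks in 6.79% (6.31 to 7.31). Not-called promoter peaks had 8.14%. In the weakest 3 deciles promoter peaks had 16.8% (14.2 to 19.7) when new and 9.16% (7.53 to 11.1) when shared.

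**Figure D4:**
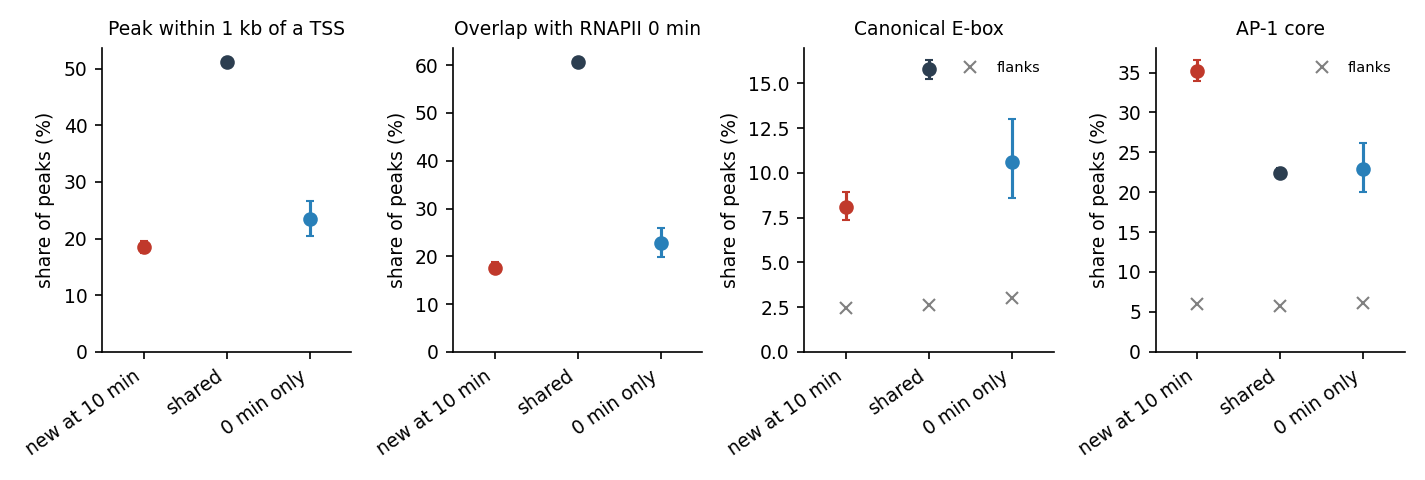
Percent of new, shared (10 min list) and 0 min only Myc peaks that reach a promoter, overlap an RNAPII 0 min peak, or hold the canonical E-box or the AP-1 core within 200 bp around the summit, with Wilson 95% intervals. Crosses give the same motif in flanking windows. New peaks are lowest for promoters (18.5%), RNAPII (17.6%) and the E-box (8.11%) and highest for the AP-1 core (35.2%).

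The rows of CATGTG shown above led to a count by copy number, made after the values had been seen. A single copy was no mark of new peaks away from promoters, where 30.6% of peaks with 0 copies, 28.8% with 1 and 30.6% with 2 were new. With 3 copies 38.0% were new (35 of 92), and with 4 or more 62.5% were (20 of 32, 45.3 to 77.1). All 20 new peaks with 4 or more copies were outside promoters. Over all peaks, those with 4 or more copies made up 0.405% of new and 0.0837% of shared 10 min peaks, against 0.0956% of flanking windows. Among non-promoter peaks alone they made up 0.496% of new and 0.129% of shared peaks. The number of such peaks is small, and the choice to count copies came from peaks among them.

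**Figure D5:**
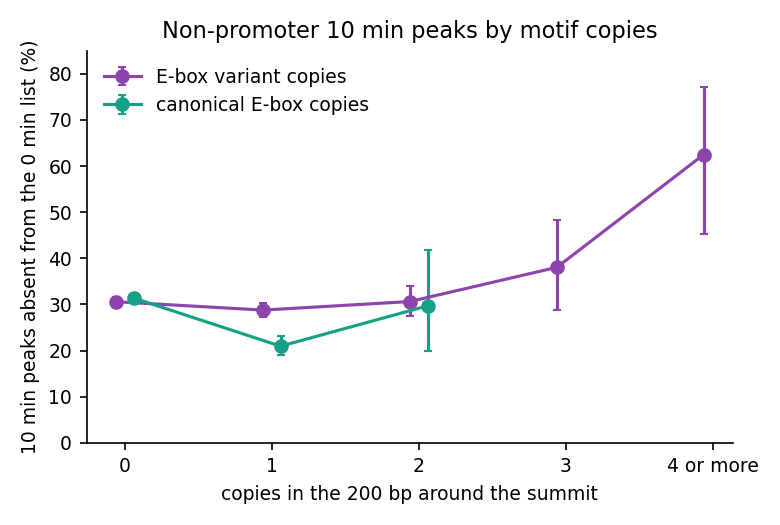
Percent of non-promoter 10 min Myc peaks that are absent from the 0 min list (vertical axis) by the number of motif copies in the 200 bp around the summit (horizontal axis), with Wilson 95% intervals, for the E-box variant (CATGTG) and the canonical E-box (CACGTG). Groups under 20 peaks are left out. With the variant the share is 30.6% at 0 copies and 62.5% at 4 or more, and with the canonical E-box it is 31.4%, 21.0% and 29.7% at 0, 1 and 2 copies.

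The Gnao1 peak (chr8:96381542-96383311) was the new peak with the highest fold enrichment, 48.57, from 271 tags, and held 6 copies. Gnao1 encodes a G protein alpha subunit, and the summit lay 47663 bp from its TSS. The nearest 0 min peak was 3660 bp away. The peak nearest to 1190002H23Rik held 11 copies, 105 tags and a fold of 16.47. Both were called in all 4 later Myc lists.

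New sites were mostly seen again in the later lists, which the sorting into classes did not use. Of the 4943 new peaks, 77.8% were called at 20 min, 56.8% at 30 min, 84.2% at 2 h and 64.4% at 4 h. In all 4 lists 43.7% (2162) were called, and in none 7.55% (373). Shared 10 min peaks were called in all 4 in 94.2% of cases. The 0 min peaks not called at 10 min often returned, with 68.1% at 20 min, 41.2% at 30 min, 77.2% at 2 h and 45.1% at 4 h. Only 11.1% (82) of them were in none. New peaks called in all 4 lists were at promoters in 23.3% of cases and had a median fold of 8.31, and those called in none were at promoters in 9.12% and had a median fold of 6.51. The later lists are of unequal length, with 25702 peaks at 20 min, 22996 at 30 min, 27388 at 2 h and 23617 at 4 h.

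At the level of genes the difference was small. A promoter peak of Myc was found at 44.7% of 22219 protein-coding genes at 0 min (9929) and at 46.8% at 10 min (10392), with 44.1% (9800) at both. The 10 min list added 592 genes (2.66%) and lacked 129 genes (0.581%) that had a peak at 0 min. RNAPII had a promoter peak at 0 min in 64.2% of the 592, in 58.1% of the 129 and in 95.6% of the 9800. With equal numbers of peaks by tags there were 273 genes at 10 min only, all among the 592, and 437 at 0 min only. Only 129 of the 437 lacked a promoter peak in the whole 10 min list. That setting keeps the whole 0 min list and drops the 10 min peaks with the fewest tags. The first count could therefore only fall and the second only rise, so this turn in order shows no direction of net change. When the peak's summit had to lie within the window, the genes at 0 min only rose to 254.

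Most listed genes of growth, metabolism and cell cycle control had Myc at both times. A Myc promoter peak was present in both lists at 33 of 33 ribosome biogenesis genes, 38 of 38 ribosomal protein genes, 27 of 27 genes of nucleotide synthesis and 7 of 7 of polyamine synthesis. The same held for 25 of 25 translation genes, 25 of 25 cell cycle genes, 17 of 18 genes of glycolysis and 5 of 7 inhibitors of cyclin-dependent kinases. Over all protein-coding genes the share was 44.1%. RNAPII lay at 0 min on 24 of 25 cell cycle, 17 of 18 glycolysis and 5 of 7 inhibitor promoters. It lay on all promoters of the other lists named here. Of 10544 protein-coding genes whose promoters carried RNAPII then, 9373 had Myc in both lists. Whether the lists differ from that share was not tested. No gene of these lists entered or left. Ncl, which encodes the nucleolar protein nucleolin, had 855 tags at rank 60 of the 0 min list and 1143 tags at rank 55 of the 10 min list. Odc1, the rate-limiting enzyme of polyamine synthesis, had 214 tags at rank 3988 and 297 tags at rank 3465. Cad, which starts pyrimidine synthesis, had 354 tags at 0 min and 503 at 10 min. Ccnd2, which encodes cyclin D2, had 243 and 372 tags. Tags are raw counts of libraries of different size, so these pairs are given side by side only.

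Of the shared peaks at protein-coding promoters, those with the most tags at 10 min belonged to Nr1d1, which encodes the clock repressor REV-ERB alpha (2171 tags, 96.96-fold), and Cirbp, a cold-inducible RNA-binding protein (1846 tags, 49.97-fold). Pcbp1, another RNA-binding protein, had 1826 tags and a fold of 112.54. Others were Brd2, a bromodomain protein that reads acetylated histones, Plec, a linker of the cytoskeleton, Tnrc18, and Tgif1, a repressor of TGF-beta signalling. Their tags ranged down to 1581. The Cirbp summit lay 5783 bp from the nearest TSS in an interval of 11031 bp, and that of Tnrc18 5909 bp away in 12061 bp. Both peaks reached a promoter window only by a part away from the summit. The peak with the most tags in the whole list (7521) had a fold of only 3.03 and lay at no protein-coding promoter. All of these overlapped an RNAPII 0 min peak.

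Of the 371 genes matched over 19 lists, 12 had Myc at 10 min only (3.23%, against 2.66% of all protein-coding genes) and 4 at 0 min only (1.08% against 0.581%). The gains over the lists together were thus near the share over all genes, and the lists are described below by their members with nothing read from their counts. The circadian clock gained 2 of 17 genes (13 at 0 min, 15 at 10 min). Among them was Arntl, the E-box-binding partner of Clock (60 tags, 9.77-fold). Its peak was called in 2 of the 4 later lists. Vesicle traffic and autophagy gained 4 of 29 genes, beside the same 2.66% overall. Stx7 (66 tags) and Stx8 (51 tags) encode endosomal membrane fusion proteins, Exoc4 (89 tags) a subunit of the exocyst, and Vps39 (79 tags) a subunit of a lysosomal tethering complex. Their 4 folds lay between 6.3 and 8.82, all 4 summits were within 32 bp of the TSS, and all 4 peaks overlapped RNAPII at 0 min.

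TGF-beta and Wnt signalling gained 2 of 24 genes, beside 2.66% of all genes. Skil, a repressor of Smad transcription factors, had a pair of new peaks with 136 and 68 tags, and Kremen1 had 124 tags and a fold of 25.45. Actin cytoskeleton and adhesion gained Myl9, a myosin regulatory light chain (38 tags, 6.52-fold), and Ankrd1 (78 tags, 7.62-fold). The remaining 2 gains were Col6a1, a chain of collagen VI (78 tags), and Lck, a kinase known from T cells (52 tags, 5.09-fold). The scores of the Myl9 and Lck peaks were 84.07 and 85.92, close to the caller's threshold. Both peaks were called in 2 of the 4 later lists, that of Ankrd1 in 3 and that of Col6a1 in all 4. Except at Skil, Kremen1 and Exoc4, the peaks of these 12 genes held 79 tags or fewer. Of all 10 min peaks with 79 tags or fewer, 3955 were new and 3400 were shared.

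The 4 genes with Myc at 0 min only had weak peaks as well, or a peak that only changed its limits. Fos, an immediate-early gene and AP-1 subunit, had 58 tags and a fold of 5.86, and its site was called again in all 4 later lists. Mxd1, a Max partner that opposes Myc, had 59 tags and a fold of 7.91 and returned in 2 of the 4. Mycl1, which encodes L-Myc, had 38 tags and a fold of 5.59 and returned in 3. The scores of the Mxd1 and Mycl1 peaks were 85.35 and 89.54, close to the caller's threshold. Without these calls the Myc, Max and Mlx network had 11 of 14 genes at 10 min, against 13 at 0 min. Of all protein-coding genes, 46.8% had Myc at 10 min, 44.7% had it at 0 min and 0.581% had it at 0 min only. Whether the network differs from all genes was not tested. At Slc17a7, a vesicular glutamate transporter, the peak of 102 tags was itself called at both times, and at 10 min its limits missed the promoter window.

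By tags, the gained promoter with the most was Eif4enif1 (chr11:3101268-3104014), which encodes a transporter of the cap-binding protein eIF4E. It had 493 tags, rank 1107, a fold of 8.55 and a CACGCG, and its summit lay 108 bp from the TSS in an intron annotated to Drg1. The peak of 3110070M22Rik (chr13:120275867-120278588) near the end of its chromosome had 310 tags, a score of only 103.69 and no call in any later list. The other 13 of the 15 named promoters had between 115 and 149 tags. Among them were Lifr, the receptor of leukaemia inhibitory factor (134 tags, 4.87-fold), Map3k6, a kinase of stress signalling (122 tags, 12.46-fold), and Ubqln2, a protein of proteasomal degradation (122 tags, 11.17-fold). They also included Blmh, bleomycin hydrolase (138 tags, 6.71-fold, with an AP-1 core in its 5′ untranslated region).

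Of the 15 promoters named by tags, 5 lay on chromosome 15 (Tmem74, Oxr1, Lifr, Phf20l1 and Cdh10), where the median peak had 174 tags at 10 min and 181 at 0 min, the highest of the 20 chromosomes. Its median fold at 10 min was the lowest, 10.98. New peaks made up 19.7% of its 10 min peaks, near the 20.5% of the whole list, and the range over chromosomes was 16.6% on chromosome 17 to 27.2% on X. Its part in the choice of names by tags was not tested, and names by fold enrichment, added after the values were seen for genes without a 0 min promoter peak, shared only Kremen1 with them at promoters. These were led by Kremen1, Sult2b1, a sulfotransferase of hydroxysteroids (19.9-fold), P2ry2 (18.85-fold), Hsd3b7, which acts in making bile acids (18.51-fold), and Cdyl2 (17.49-fold). All 10 of the promoter peaks named in this way were called in all 4 later lists. Of them, 2 held CACGTG (P2ry2 and Gmip) and 5 overlapped RNAPII at 0 min.

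The new peak with the most tags among those over 10000 bp from any TSS was an interval of 11185 bp on X in an intron of Mid1 (1032 tags, 10.82-fold). A new peak of 288 tags and 9.97-fold (chr15:61879558-61882034) lay in an intron of Pvt1, the noncoding gene beside Myc, 62199 bp from the Myc TSS. It held an AP-1 core, and Myc was the nearest protein-coding gene of 6 new summits beyond 1000 bp of a TSS in all. Mettl15 (9) and Kirrel3 (8) had the most. The 4182 new summits beyond 1000 bp of a TSS were spread over 2972 nearest genes. Of these summits, 60.7% had a nearest gene with Myc at its promoter at 0 min, against 67.5% of shared summits. Distal peaks with high fold besides Gnao1 included those in an intron of Ptprt, a receptor phosphatase (25.52-fold), near Lsm3, a protein of the U6 snRNA complex (20.99-fold), and in Tead1, a transcription factor of the Hippo pathway (20.59-fold).

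Among the 0 min promoters that lost their call, the peak with the most tags was at Gm17329, in an intron shared with Col1a1, with 204 tags but a fold of 3.51. It was called in 2 of the 4 later lists. Next came 2810432D09Rik (128 tags, 8.73-fold) and Sema4g (125 tags, 4.99-fold). Jup, the junction protein plakoglobin, had 92 tags and a fold of 5.76. Of the 10 named, Cmbl (91 tags, 4.36-fold) was in none of the later lists, and the other 9 were in at least 1.

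Marker promoters were read as a check of the labelled cell type. RNAPII at 0 min lay on 19 of 24 fibroblast marker promoters, 1 of 10 of B cells, 2 of 10 of T or myeloid cells, 1 of 10 of neurons and 0 of 10 of hepatocytes, beside 47.5% of all protein-coding genes. Myc was on 19 of 24 fibroblast markers at 0 min, beside 44.7% of all genes, and on 20 at 10 min, beside 46.8%.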

How the data were processed

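Myc peaks at 0 min and 10 min were the authors' calls on 1 library each. Per the submitters' processing notes, the aligner was BWA 0.6.2-r126 and the build mm9. Peaks were called with MACS 1.4.2 at a p cutoff of 1e-08 against a control, per the file headers, and the broad RNAPII list with MACS 2.0.9. The deposited values of a peak are the count of tags (raw, not scaled to depth), a score of −10 times log10 p, the ratio of tags to local control (fold enrichment) and a false discovery rate in percent. Score, fold and rate describe peaks within their list only.

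Lists were compared in Python 3.11.15 (numpy 2.4.6, pandas 2.3.3, scipy 1.17.1, matplotlib 3.10.9) by overlap of at least 1 bp. The overlap code was tested on simulated intervals. TSSs came from GENCODE vM1 on NCBIM37. Promoter shares of peaks used TSSs of all transcripts, and gene counts used protein-coding TSSs of 22219 genes. Motifs were counted on both strands in the 200 bp around the summit.

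Members, lists and rules were chosen with earlier results of these data known. Genes were named by tags within a class (15 gained and 10 lost promoters, 10 new distal and 8 shared peaks), plus members of the lists that entered or left and 9 known targets, of which 4 are described. Names by fold and the copy counts were added after the values were seen. Of 373 listed symbols 371 matched (not Noc2l and Tfeb). Alternatives changed the overlap rule, numbers of peaks, thresholds, TSS and motif windows and the RNAPII list. Some genes and a sequence that the rules would name are not reported here.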

Additional observations from a re-analysis of the deposited data

How the results depend on the processing

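Of 70 alternatives over 13 results, 31 stayed within the limit set for a change (1.5 times for a count, the 95% interval for a share) and 39 moved. Each count or share was scored on its own, so a change of order between them was not scored. New and not-called peaks were scored by their number only, also where the lists were cut. With 5000 peaks a side, the 649 not-called peaks thus scored as unmoved against 736. Their share was 13.0% of that list, against 3.68% in the main comparison. The totals of 31 and 39 are therefore no measure of how firm the shares of new and not-called peaks are. The largest movement came from equal numbers of peaks. New peaks numbered 2298 with equal lists by tags (1096 with 10000 and 662 with 5000 a side), 2049 by p-value and 2494 by fold, and 0 min peaks not called numbered 2117, 1863 and 2309 by tags, p-value and fold. With a score of at least 150 in both lists, compared again, there were 4153 new and 329 not-called peaks. The 4153 include peaks shared in the whole lists whose 0 min peak scored under 150. The 4943 new peaks of the main comparison had a median score of 116.61. Genes at 10 min only were 846 (225 of them among the 592) and at 0 min only 105. A false discovery rate of at most 1% removed no peak, so its counts could only stay the same. Without chromosome 15, added after the data had been seen, there were 4710 new and 699 not-called peaks. Genes at 10 min only fell to 273 and genes at 0 min only rose to 437 with equal lists by tags, the only directions that setting allows. Genes at 0 min only were 254 with the summit in the window.

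Shares of new, shared and not-called peaks moved with their definition, but new peaks stayed below shared peaks in every setting run. Promoter shares of new and shared peaks were 16.4% and 50.03% with a 500 bp window, 22.3% and 53.8% with 2000 bp (28.9% for not-called peaks), 14.6% and 47.6% with protein-coding TSSs (19.8%), and 15.4% and 47.3% by summit (19.8%). Shared and not-called peaks had 53.0% and 27.02% in equal lists. CACGTG was in 5.73%, 11.8% and 6.66% of new, shared and not-called peaks within 100 bp, in 10.5% of new and 19.2% of shared peaks within 400 bp, and in 11.3%, 26.9% and 13.99% with CACGCG added. RNAPII overlapped 9.95%, 53.5% and 16.03% in the broad list, 59.8% of shared peaks by summit, and 18.9% of new and 63.3% of shared peaks in equal lists.

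No paired analysis was possible because there was 1 library at each time. Both lists end at a fixed p cutoff, so a site just under it counts as absent, and an absent call is not shown to be absent binding. No value has a replicate error.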

Other observations

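Some other motifs in the 200 bp around the summit also differed between the classes. The GC box GGGCGG was found in 9.10% of new peaks, 24.9% of shared 10 min peaks and 12.5% of 0 min peaks not called at 10 min, against 3.39%, 6.37% and 3.87% of flanking windows. At promoters it was found in 29.2% of new and 41.7% of shared peaks. CATGTG was found in 31.8% of new and 24.2% of shared peaks, but away from promoters in 35.004% and 36.2%. At promoters it was found in 17.8% (15.4 to 20.4) of new and 12.8% (12.1 to 13.4) of shared peaks. CCAAT was about as frequent in new as in shared peaks (21.8% and 21.2%), and in both no more frequent than in their flanks (24.4% and 23.4%).

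Of the 20 new peaks with 4 or more copies of CATGTG, 17 were called in all 4 later lists. They were all in introns or intergenic, and their folds ranged from 5.35 at the peak nearest to Prtg to 48.57 at Gnao1.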
